A study of Danio rerio with 6 samples.

Results

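Mitosis separates the copied chromosomes into daughter cells. B-type cyclins activate the kinase Cdk1 at entry, condensin and topoisomerase compact the chromosomes, kinetochores attach them to a spindle built by motor proteins, and a checkpoint delays separation until every kinetochore is attached. A contractile ring and the central spindle then divide the cell. Transcripts of these proteins accumulate in G2 and M phase, so in whole tissue their level depends on how many cells are dividing. 46 genes of spindle, kinetochore and cytokinesis were looked up by symbol in RNA-seq counts of zebrafish embryos, in order to compare *mettl16*-/- embryos with siblings step by step and by replicate number. 40 symbols matched an Ensembl gene directly, and 4 further identifiers were taken under the name of the human orthologue. These are KIF4A for kif4, BIRC5 for birc5a, and ENSDARG00000005993 and ENSDARG00000100918, both listed as PRC1, for prc1a and prc1b, which could not be told apart. No identifier was matched to incenp or cenpa. The resulting 44 identifiers, of 26375 in the count files, were all among the 18487 genes tested: 7 for entry, 16 for kinetochore and checkpoint, 9 for spindle motors and spindle proteins, 7 for condensin and chromosome compaction, and 5 for cytokinesis.

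The study asks how the RNA methyltransferase Mettl16 acts in hematopoietic stem and progenitor cells (HSPCs) of the caudal hematopoietic tissue (CHT), where these cells divide. Total RNA was taken at 3 dpf from tails of AB zebrafish, including the CHT, with the tails of many embryos put together for each library and the heads used to read the genotype. The 3 *mettl16*-/- libraries came from a line made by CRISPR/Cas9 that carries a small deletion in *mettl16* (treatment label gene knockout), and the 3 sibling libraries are labelled *mettl16*+/+ with no treatment, while the methods call them siblings. Nothing in the labels says that libraries of a group came from separate clutches, so p-values measure the spread between these libraries, which may be technical. Each library held 16239791 to 18541402 counts, and single members had between 34 and 1947 counts in a library.

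The labels and the tissue were checked first. *mettl16* itself (ENSDARG00000055838) was counted 104, 120 and 117 times in siblings and 64, 59 and 86 times in *mettl16*-/- libraries, so the groups did not overlap. Its log2 fold change of -0.63 (SE 0.211) did not pass the adjusted threshold (adjusted p = 0.9999, edgeR). In an edgeR fit that blocks on replicate number the adjusted p was 0.0683, also outside the threshold. Skeletal muscle and epidermis markers were high in every library. Blood progenitor markers were low, with a summed level of 40.6 to 45.8 CPM in siblings and 38.9 to 41.9 in *mettl16*-/- libraries over 7 matched genes, of which 6 were tested, where CPM is a gene's count scaled to a common library size with TMM factors. Members are therefore read from a whole tail in which many cell types divide, and fewer dividing cells cannot be told apart from less RNA per cell. Of the progenitor markers, myb (*cmyb* in the study) had 16.7, 15.5 and 18.6 CPM in siblings and 14.9, 13.5 and 13.1 in *mettl16*-/- libraries. Its groups did not overlap, with a log2 fold change of -0.29 (SE 0.130, adjusted p = 0.9999, edgeR). Spi2, with 8 to 22 counts a library, lay at 0.38 (SE 0.448). Gata2b (-0.19, SE 0.522), ikzf1 (-0.17, SE 0.373), lmo2 (-0.01) and tal1 (-0.01) lay below 0 as log2 fold changes. In this list 0 genes were called. The lens gene crygm2d1 stood apart in *mettl16*-/- replicate 1, with 318 counts there against 0, 0 and 11 in siblings and 0 and 2 in the other *mettl16*-/- libraries. The part of eye tissue in the members' values was not tested.

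No mitosis gene differed between *mettl16*-/- embryos and siblings by the test. Of the 44 members, 0 had an adjusted p under 0.05, against 0.124% of all genes (23 of 18487, edgeR quasi-likelihood test with Benjamini-Hochberg adjustment), and in a fit that blocks on replicate number the members called were again 0, against 1.04% of all genes. The members with an unadjusted p under 0.05 were also 0, against 2.17% of all genes, and DESeq2 gave 0 members at the adjusted threshold, beside 0.325% of all genes, and 0 at the unadjusted threshold, beside 1.61% of all genes. At these shares few of 44 genes would pass in any case. Log2 fold changes ran from -0.35 for pttg1 to 0.34 for ccnb2, with a median of -0.03, beside a median of -0.003 over all genes. 29 of the 44 members (65.9%) lay below 0, beside 50.9% of all genes, and 27 lay within 0.1 of 0 on the log2 scale. This share depended on single libraries, since without *mettl16*-/- replicate 3 only 14 of the 44 lay below 0 and the median was 0.04, while without *mettl16*-/- replicate 1 the median was -0.10. With 1 library left out, the median of each step took both signs, from -0.056 to 0.10 for entry, -0.13 to 0.043 for kinetochore and checkpoint, -0.084 to 0.021 for spindle, -0.21 to 0.048 for compaction and -0.20 to 0.11 for cytokinesis genes. The upper end came without *mettl16*-/- replicate 3 in all 5 steps.

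The intervals bound how large a difference these libraries leave room for. The standard error of a member's log2 fold change was 0.143 in the median and ran from 0.0943 to 0.262. The 95% interval stayed within a 2-fold change in either direction for 44 of 44 members and within a 1.5-fold change for 40. The 4 that reached further were ccnb2, BIRC5, pttg1 and cenpe, and the first 3 of these had fewer than 9 CPM in every library. These intervals are those of the fit without the replicate block. In the blocked fit the median standard error was 0.0970, and 42 members stayed within a 1.5-fold change.

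**Figure D1:**
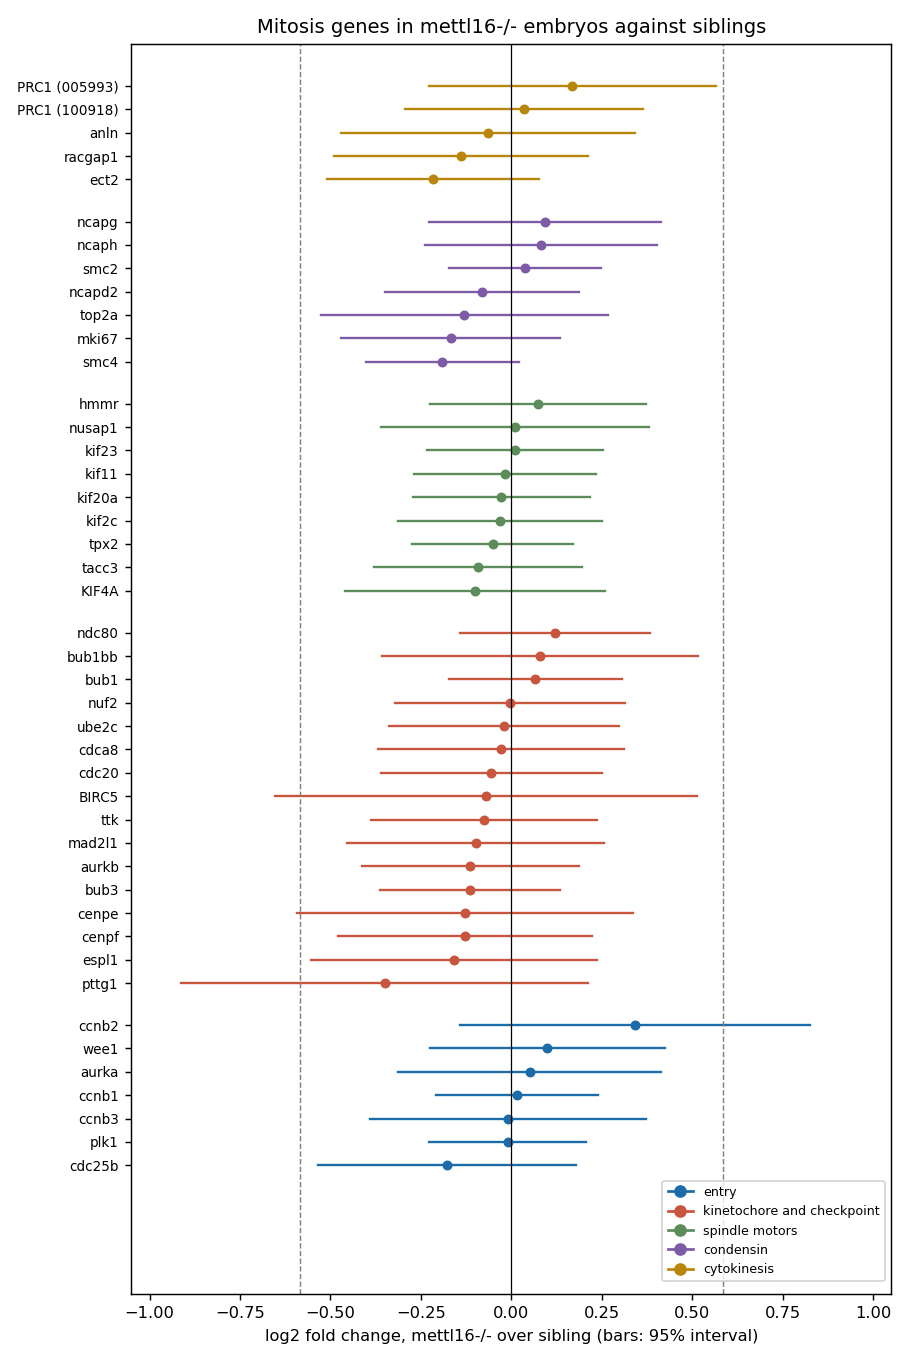
Log2 fold change of each of the 44 mitosis genes, *mettl16*-/- over sibling, on the x axis, with 1 row a gene and colours for the 5 steps. Bars are 95% intervals of the fit without the replicate block. Dashed lines mark a 1.5-fold change, and the numbers beside PRC1 are the ends of the 2 identifiers. Every bar crosses 0, and 40 of 44 lie between the dashed lines.

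The entry genes comprise activators of Cdk1, its inhibitory kinase wee1 and the first mitotic kinases. Of the 7, 4 lay above and 3 below 0, with a median log2 fold change of 0.02. Cyclin B2 (ccnb2), an activating partner of Cdk1, had 3.48, 3.34 and 4.25 CPM in sibling replicates 1, 2 and 3 and 4.13, 5.51 and 4.37 in the *mettl16*-/- replicates. The groups overlapped at *mettl16*-/- replicate 1, and the log2 fold change of 0.34 (SE 0.217) did not pass the test. Of the opposing pair that sets Cdk1 phosphorylation, the activating phosphatase cdc25b had 15.3, 17.5 and 14.0 CPM in siblings and 16.7, 12.4 and 12.3 in *mettl16*-/- libraries, a log2 fold change of -0.18 (SE 0.161). The inhibitory kinase wee1 had 16.6, 22.2 and 21.9 CPM against 19.9, 24.4 and 20.8, a log2 fold change of 0.10, with overlapping groups for both genes. The main B-type cyclin ccnb1 (0.02), ccnb3 (-0.01), the kinase plk1 (-0.01) and the centrosomal kinase aurka (0.05) had log2 fold changes within 0.1 of 0.

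In the kinetochore and checkpoint step, 13 of 16 members lay below 0 and 3 above, with a median log2 fold change of -0.07. Securin (pttg1), the inhibitor that holds separase until anaphase, had 4.13, 3.5 and 3.35 CPM in siblings and 2.13, 3.17 and 3.29 in *mettl16*-/- libraries. The groups did not overlap, but the gap between sibling replicate 3 and *mettl16*-/- replicate 3 was small and most of the difference lay in replicate 1. The log2 fold change was -0.35 (SE 0.253), at only 34 to 70 counts of pttg1 a library. Its target, the separase espl1, had a log2 fold change of -0.16 with overlapping groups. Ndc80, the microtubule-binding subunit of the outer kinetochore, had 19.5, 18.8 and 18.3 CPM in siblings and 19.5, 22.7 and 19.2 in *mettl16*-/- libraries, a log2 fold change of 0.12 (SE 0.118), while its partner nuf2 lay at -0.0035. The kinetochore motor cenpe spread widely between replicates, with 56.0, 43.2 and 41.5 CPM in siblings and 57.4, 37.2 and 34.4 in *mettl16*-/- libraries (log2 fold change -0.13, SE 0.204).

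The centromere protein cenpf had a log2 fold change of -0.13. Of the checkpoint genes, bub1 (0.07) and bub1bb (0.08) lay above 0, and bub3 (-0.11), mad2l1 (-0.10) and the kinase ttk (-0.08) below it, as log2 fold changes. Of the genes that trigger anaphase through the ubiquitin ligase APC/C, the activator cdc20 had a log2 fold change of -0.05 and the conjugating enzyme ube2c of -0.02. The chromosomal passenger genes, which correct attachments, gave -0.11 for the kinase aurkb, -0.03 for borealin (cdca8) and -0.07 for BIRC5 (survivin).

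The spindle proteins had the narrowest range of the 5 steps. Of the 9, 3 lay above and 6 below 0, with log2 fold changes between -0.10 and 0.07. The bipolar motor kif11, which pushes the spindle poles apart, had 63.4, 55.2 and 52.2 CPM in siblings and 62.9, 52.6 and 53.3 in *mettl16*-/- libraries (log2 fold change -0.02, SE 0.113). The chromokinesin KIF4A had 19.5, 16.97 and 16.7 CPM against 20.3, 15.8 and 13.5 (-0.10, SE 0.162). Tacc3, which stabilizes spindle microtubules, had 34.4, 41.7 and 37.6 CPM against 35.2, 41.0 and 30.4 (-0.09, SE 0.130). The groups overlapped for all 3 genes, and *mettl16*-/- replicate 3 was the lowest library for KIF4A and tacc3. The spindle assembly factor tpx2 (-0.05), the midzone kinesins kif20a (-0.03) and kif23 (0.01), the depolymerizing kinesin kif2c (-0.03), nusap1 (0.01) and hmmr (0.07) gave the other log2 fold changes.

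Of the genes of chromosome compaction, 3 lay above and 4 below 0, with a median log2 fold change of -0.08. Smc4, a core ATPase of condensin, had 59.5, 57.6 and 59.2 CPM in siblings and 53.3, 54.2 and 47.0 in *mettl16*-/- libraries. Every *mettl16*-/- value (mean 51.5 ± 3.93, SD, n = 3) lay below every sibling value (mean 58.8 ± 1.048, SD, n = 3), yet the log2 fold change of -0.19 (SE 0.0951) had an unadjusted p of 0.0731 in the edgeR fit, the lowest of the 44. Its partner smc2 had a log2 fold change of 0.04, and the condensin I subunits ncapd2, ncapg and ncaph gave -0.08, 0.09 and 0.08, so the subunits did not lie on the same side of 0. The topoisomerase top2a, which disentangles sister chromatids, had 88.6, 77.2 and 68.1 CPM in siblings and 85.5, 75.7 and 52.6 in *mettl16*-/- libraries (-0.13, SE 0.175). Mki67, the Ki-67 antigen that coats mitotic chromosomes, had 99.2, 100.1 and 81.3 CPM against 95.2, 86.4 and 68.4 (-0.17, SE 0.136). For both genes the lowest library was *mettl16*-/- replicate 3 and the groups overlapped.

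With the replicate number as a block, 3 members had an unadjusted p under 0.05 and lay lower in *mettl16*-/- libraries, namely smc4, top2a and mki67. They make up 6.82% of the members beside 4.34% of all genes lower in that fit, and none lay higher, beside 4.85% of all genes. Their adjusted p-values were 0.233 for mki67, 0.250 for smc4 and 0.499 for top2a in the blocked edgeR fit, so none was called.

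Of the cytokinesis genes, 2 lay above and 3 below 0. Ect2, the exchange factor that activates RhoA at the division plane, had 14.7, 14.6 and 14.7 CPM in siblings and 12.6, 14.0 and 11.3 in *mettl16*-/- libraries. The sibling values were nearly equal and all *mettl16*-/- values lay below them, with a log2 fold change of -0.22 (SE 0.132). Its binding partner racgap1, a subunit of centralspindlin, gave a log2 fold change of -0.14 with overlapping groups. Anillin (anln), the scaffold of the contractile ring, had 34.7, 33.4 and 26.4 CPM against 37.0, 30.8 and 22.6 (-0.06, SE 0.181). The PRC1 identifier ENSDARG00000005993, for a microtubule bundler of the central spindle, had 13.2, 11.9 and 9.16 CPM against 15.2, 12.02 and 11.3 (0.17, SE 0.178), and ENSDARG00000100918 gave 0.04.

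Smc4, ect2 and pttg1 were thus the members whose groups did not overlap, all lower in *mettl16*-/- libraries. They are 3 of 44 (6.82%), beside 3.43% of all genes, and 0 members lay wholly higher, beside 3.46% of all genes. With 3 libraries a group, an exact permutation test of such a gene cannot go below a two-sided p of 0.10. With 1 library left out, the lower count was 10 without *mettl16*-/- replicate 1 and 6 without sibling replicate 3. The higher count was 3 without sibling replicate 1. Leaving out a library can only keep or raise such counts. The share over all genes was not taken for these fits, so the counts cannot be read as a result about the members.

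**Figure D2:**
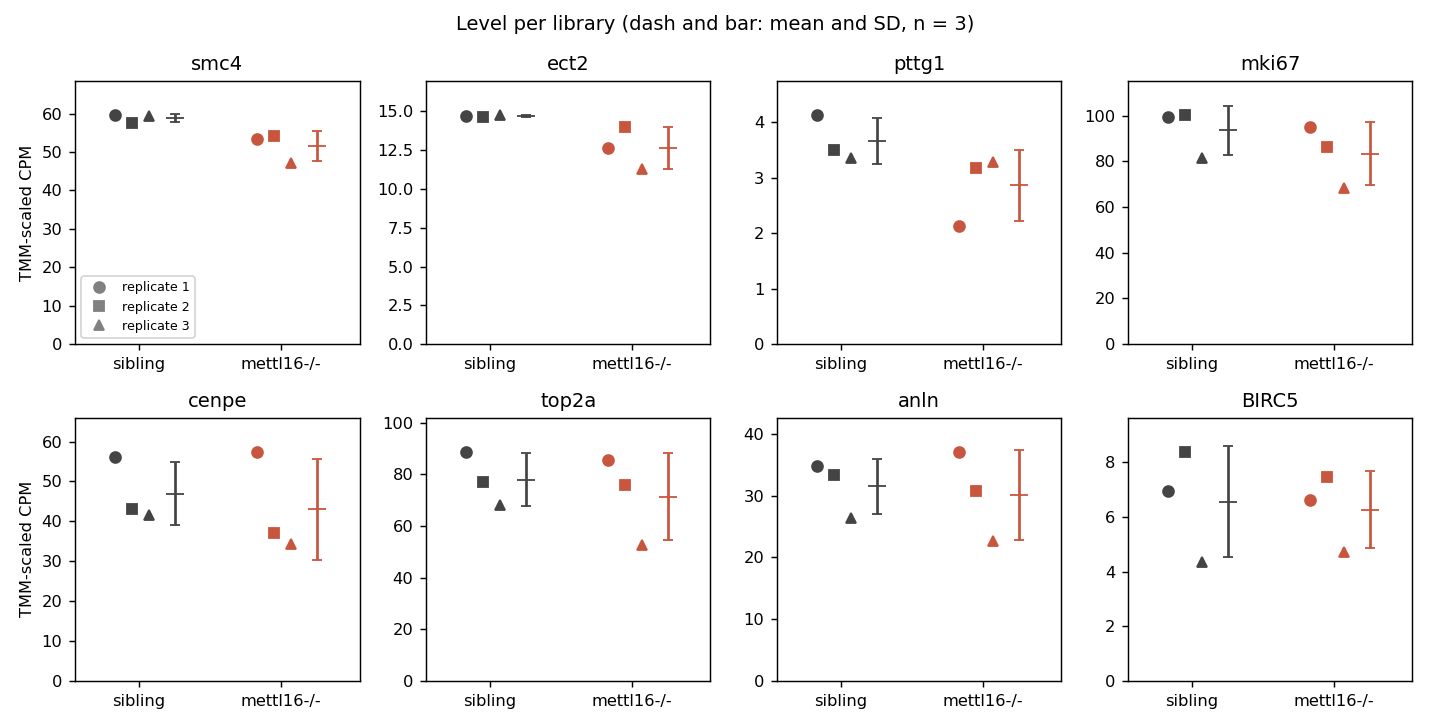
TMM-scaled CPM (y axes, from 0) of 8 members in each of the 6 libraries, siblings in grey and *mettl16*-/- in red, with a symbol for each replicate number and the mean and SD of the 3 libraries beside them. For smc4, ect2 and pttg1 all *mettl16*-/- points lie below all sibling points, while mki67, cenpe, top2a, anln and BIRC5 are lowest at replicate 3 in both groups.

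The levels of the members also varied with replicate number. Across the 3 numbers a member's mean log2 level ranged over 0.265 in the median, beside a median absolute log2 fold change for genotype of 0.0802, and over all genes these values were 0.312 and 0.103. Since a range over 3 numbers is compared with a difference of 2 groups, the pair is a description. The number was called for 14 of 44 members (31.8%), beside 24.7% of all genes, in the edgeR fit with genotype as covariate.

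All 14 called members had their lowest level at number 3. They were BIRC5, cdc20, cenpe and cenpf of the kinetochore step, kif11, KIF4A, nusap1 and tacc3 of the spindle, top2a, ncapg and mki67 of compaction, and anln, racgap1 and ENSDARG00000005993 of cytokinesis. Called with number 3 lowest were 31.8% of the members, beside 9.17% of all genes, and called with number 3 highest were 0 members, beside 8.80% of all genes. This split was chosen after the values were seen and is a description. Of the called genes over the whole table, 37.1% had number 3 lowest. The order held in siblings for 13 of the 14, in *mettl16*-/- libraries for 12 and in both for 11.

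Number 1 over number 3, averaged over both groups, was 1.49-fold for cenpe, 1.45-fold for top2a and 1.46-fold for anln. The edgeR test for replicate number (adjusted p = 2.3e-05 for cenpe) covers any difference among the 3 numbers, not number 1 against number 3 alone. For cenpe, sibling replicate 1 and *mettl16*-/- replicate 1 stood above the other 4 libraries, whereas for top2a the levels were spaced over all 3 numbers in both groups. At the other end were kif11, at 1.20-fold, and tacc3, at 1.03-fold. Tacc3 was highest at number 2 in both groups and, in siblings, lowest at number 1. No entry gene was called, with wee1 at an adjusted p of 0.0595 and aurka at 0.0597 just outside the threshold. Wee1 was lowest at number 1 in both groups, where cenpe was highest. Entry genes lay on both sides for number 1 over number 3. Wee1 gave 0.854-fold, ccnb2 0.892-fold and ccnb1 0.906-fold (adjusted p = 0.392 for ccnb1, edgeR test for replicate number). Aurka gave 1.24-fold, cdc25b 1.21-fold, ccnb3 1.13-fold and plk1 1.105-fold. The median log2 ratio of number 1 over number 3 was 0.144 for entry genes, beside 0.198 for all members.

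The count of calls for replicate number moved with single libraries. Fits that each left out 1 library were an alternative chosen after the data were seen. Of the 44 members, 8 were called without sibling replicate 1 and 5 without sibling replicate 3. Without *mettl16*-/- replicate 1 they numbered 5, and without *mettl16*-/- replicate 3 they numbered 3. Over all genes the calls in these 4 fits were, in the same order, 2667 of 18747, 2762 of 18868, 2629 of 18810 and 2682 of 18872. The members' share thus lay above that of all genes without sibling replicate 1 and below it in the rest of these fits. Without sibling replicate 2 the called members numbered 13 of 44, beside 4054 of 18822 genes. Without *mettl16*-/- replicate 2 they numbered 17 of 44, beside 5318 of 18847 genes, so here the members' share was the larger. The labels do not say what a number stands for.

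**Figure D3:**
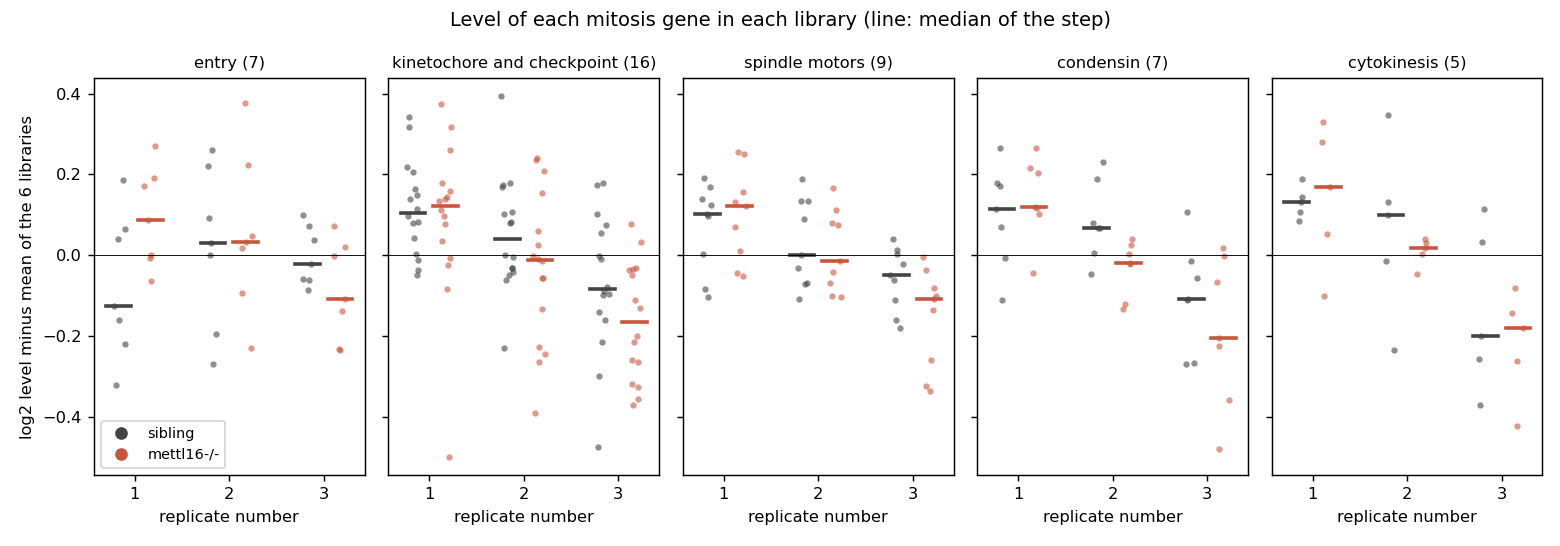
Log2 level of each member minus its mean over the 6 libraries (y axis) against replicate number (x axis), in 1 panel for each of the 5 steps, siblings in grey and *mettl16*-/- in red, with lines for the step medians. Over all 44 members the medians are 0.10, 0.07 and -0.06 in sibling replicates 1, 2 and 3 and 0.12, 0.001 and -0.14 in the *mettl16*-/- replicates.

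Within each number, the *mettl16*-/- library was compared with its sibling library. The members' median log2 ratio was 0.04 at number 1, -0.06 at number 2 and -0.09 at number 3, and the ratio lay below 0 for 15, 29 and 32 of the 44 (34.1%, 65.9% and 72.7%), beside 49.6% to 51.3% of all genes at a number. The sign of the genotype difference thus changed between the pairs. Entry genes had median log2 ratios of 0.15, 0.03 and -0.08, kinetochore and checkpoint genes 0.01, -0.10 and -0.07, and spindle genes 0.02, -0.02 and -0.05. Compaction genes gave 0.09, -0.09 and -0.19, and cytokinesis genes 0.02, -0.06 and -0.18. In each of the 5 steps the median was positive at number 1 and negative at number 3. The members' share of all counts ran the same way, at 0.127%, 0.130% and 0.115% in siblings and 0.127%, 0.117% and 0.101% in *mettl16*-/- libraries. With 1 library of each genotype a number, these ratios have no replicate within a pair.

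**Figure D4:**
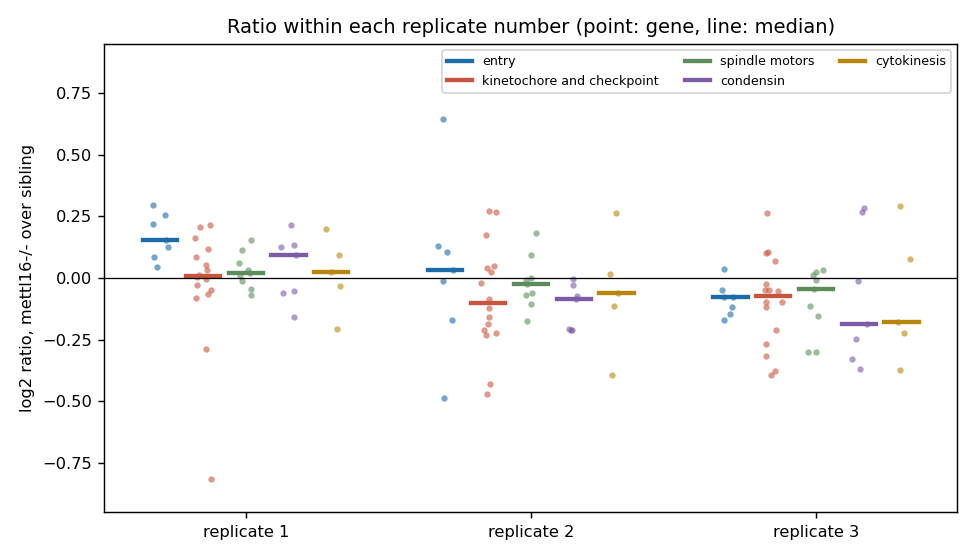
Log2 ratio of the *mettl16*-/- library over the sibling library with the same replicate number (y axis), for each member (points) and each step (lines are medians), at replicate numbers 1, 2 and 3 (x axis). The step medians lie above 0 at number 1 and below 0 at number 3, and pttg1 is the low point at number 1.

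Mitosis genes outside the 46 gave a like picture for genotype in calls and median. Their groups did not overlap for 1 gene lower and 2 higher in *mettl16*-/- libraries. For the members these counts were 3 and 0, and over all genes the shares were 3.43% and 3.46%. Of 46 tested genes in a list of other regulators, 19 lay above and 27 below 0, with a median log2 fold change of -0.03, and 0 were called or had an unadjusted p under 0.05 in the main edgeR fit, while in the blocked fit knl1 alone reached an unadjusted p of 0.0289 and 0 were called. The 2 with the smallest p were knl1, the kinetochore scaffold that recruits the checkpoint (log2 fold change -0.26, SE 0.149), and foxm1, a transcription factor of G2 and M genes (0.23, SE 0.139). By replicate number 7 were called (15.2%), a smaller share than the 24.7% of all genes and the 31.8% of the members. Of these 7, 6 had number 3 lowest, namely ccnf, ckap5, dlgap5, bub1ba, smc3 and pbk, while aspm was lowest at number 2. Of 23 S phase genes, 9 lay above and 14 below 0 for genotype, with a median log2 fold change of -0.008. In both edgeR fits 0 were called. Slbp had the lowest unadjusted p, 0.0339 in the main edgeR fit and 0.00337 in the blocked one (log2 fold change -0.35, SE 0.142). By number 4 were called (mcm5, mcm7, chaf1a and uhrf1), or 17.4% beside 24.7% of all genes, with number 3 lowest in 1 and highest in 2. The median deviations of the 23 were -0.07, 0.04 and 0.09 in siblings and 0.03, 0.002 and -0.013 in *mettl16*-/- libraries. At number 3 the S phase genes thus lay opposite to the mitosis genes in siblings and on the same side in *mettl16*-/- libraries. The difference between the lists was not tested. The transcription factor gene *mybl2b* had 204, 301 and 210 counts in siblings and 138, 178 and 142 in *mettl16*-/- libraries, groups that did not overlap (log2 fold change -0.57, SE 0.155, adjusted p = 0.955, or 0.0102 with the replicate block in edgeR). In mammals its orthologue MYBL2 takes part in the transcription of G2 and M genes.

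Marker levels of other tissues also moved with the number, which was called for 24.7% of all genes. Erythroid markers summed to 2288, 1937 and 1699 CPM in sibling replicates 1, 2 and 3 and to 2616, 1864 and 1814 in the *mettl16*-/- replicates, highest at number 1 and lowest at number 3 in both groups as for top2a. Hbae3 made up most of this sum, and 4 of 5 erythroid genes had that order in both groups, while hbae1.1 was highest at number 3 in siblings. Neural markers gave 267, 253 and 196 against 259, 237 and 205 CPM, though gap43 rose from number 1 to 3 in *mettl16*-/- libraries. Endothelial markers gave 172, 176 and 158 against 179, 177 and 165 CPM. Liver markers rose from number 1 to 3, at 1709, 2123 and 2279 against 1592, 1816 and 1930 CPM. Muscle markers were lowest at number 2, at 133614, 103918 and 117994 against 136112, 121901 and 132540 CPM. Epidermis markers were highest at number 1 and, in siblings only, lowest at number 3. Of the tested markers, the number was called for 5 of 5 of skeletal muscle, 5 of 6 of epidermis, 3 of 6 of endothelium, 2 of 5 erythroid, 2 of 3 neural and 2 of 4 of liver, and for 0 of 6 of blood progenitors, 0 of 4 of neutrophils and macrophages, 0 of 2 of pancreas and 0 of 3 tail hox genes. Between the genotypes, pancreas markers summed to 23.5 to 72.9 CPM in siblings and 11.3 to 18.3 in *mettl16*-/- libraries, with 1 gene called lower, and in the blocked fit 3 of 4 liver markers were called lower and 1 erythroid and 1 muscle marker higher. Their part in the members' values was not tested.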

How the data were processed

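Reads were filtered with fastp 0.18.0 by the authors, cleared of ribosomal RNA, mapped to Ensembl GRCz11 with HISAT2 and processed with StringTie 1.3.1, as the study's methods and processing notes name them. The deposited values are whole-number counts per gene, not normalized. The counting tool, its use of strand and its handling of paralogs are not given in the sources used here, so counts of near-identical copies are uncertain. Symbols came from a table of gene names, looked up by the Ensembl identifiers in the count files. No sequence or coordinate was used.

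Counts were scaled by TMM, filtered with filterByExpr and fitted over 18487 genes in edgeR 4.0.16 (R 4.3.3, quasi-likelihood, robust), with Benjamini-Hochberg adjustment and calls at an adjusted p under 0.05. Standard errors and 95% intervals came from the same fit. Libraries were compared on log2(CPM + 0.5). Members and lists were chosen with earlier results of these data known. Values of every library are given for the 2 members of a step with the smallest genotype p, any called, and the one with the smallest p for replicate number. The edgeR code was run on simulated counts. Those for the genotype test had no differences between replicate numbers, unlike these data, so the run does not measure how the main fit performs here.

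The main fit had no pairing, since the methods name none. Deviations of same-numbered libraries from their group mean correlated at 0.625, 0.345 and 0.553 across all genes, which are not independent replicates. Those of different numbers lay at -0.481 to -0.0279. Centring on the group mean pushes these values below 0, so they are no separate evidence of pairing. The shared numbers were taken as a possible pairing, used in the blocked fit and not in the main fit. Alternatives were DESeq2 1.42.0, its size factors, other filters, the replicate block and leaving out libraries.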

Additional observations from a re-analysis of the deposited data

How the results depend on the processing

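The count of members called for genotype was 0 in each of 14 alternatives, but calls over all genes were also few, at 3 to 21 without 1 library and at 7, 0 and 0 without number 1, 2 or 3, so these fits bear little on the members. Size factors of DESeq2, DESeq2 itself, no filter and a mean of at least 50 counts left 29 members below 0. With the replicate block the median log2 fold change was -0.03 and no call of a member changed, while calls over all genes went from 23 to 193; DESeq2 gave 60. Leaving out libraries (1, or both of a number) gave medians from -0.10 to 0.040 and from 14 to 35 members below 0. With 1 library left out, 3 to 17 of 44 members were called for replicate number, beside 2629 to 5318 genes in all. The members' share was not above that of all genes in every such fit. The log2 fold changes of 7 named members near 0 changed sign in these fits. They ran from -0.024 to 0.19 for wee1, -0.39 to 0.021 for cenpe, -0.10 to 0.068 for kif11, -0.27 to 0.026 for KIF4A, -0.21 to 0.0093 for tacc3, -0.28 to 0.048 for top2a and -0.24 to 0.11 for anln; the cause was not tested. Pttg1, ccnb2 and BIRC5 had the fewest counts.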
